A study of Mus musculus with 3 samples.

Results

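The genes described are Nfe2l2, which encodes the transcription factor NRF2, its inhibitor Keap1, and 8 genes known as NRF2 targets: Slc7a11, Gclm, Gclc, Nqo1, Hmox1, Txnrd1, Srxn1 and Gsta4. They were chosen by symbol, and all 10 were found among the 31053 genes of each count matrix. The counts came from single cells of dorsal skin of C57BL/6 mice aged 7 weeks, with 1 droplet library of 3' transcripts for each of 3 groups. For the normal library, control mice were given glycerin according to the labels. The IMQ library came from skin given imiquimod, a Toll-like receptor agonist that causes a psoriasis-like dermatitis in mice, and the IMQ+celastrol library from skin given imiquimod and celastrol, a plant triterpenoid. The labels do not state how many animals were pooled, the dose or the duration.

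NRF2 is held in the cytoplasm by KEAP1, which acts as an adaptor for a ubiquitin ligase and keeps the factor short-lived. Electrophiles and oxidants modify cysteines of KEAP1, so that NRF2 escapes degradation, enters the nucleus and binds antioxidant response elements together with small MAF proteins. Its known targets import cystine, build glutathione, supply NADPH and detoxify quinones, heme and lipid aldehydes. In epidermis the pathway is known for protecting keratinocytes from chemical and ultraviolet stress.

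The core of the antioxidant response element, TGACNNNGC, was searched on both strands of 300 bases around each annotated start site, from 250 before it to 50 after it. Promoters in the RefSeq table (build GRCm38.p6) matched 7 of the 10 genes, and those of Gclc, Hmox1 and Gsta4 were not among them. The core was found in 4 of these 7, namely Nfe2l2, Gclm, Txnrd1 and Srxn1, and in 12.4% of all 32851 promoters. The promoters of 13.99% of 27025 genes held it. In Srxn1 the match began 29 bases after the start site. The stretches around the upstream matches are shown because they carry this element in front of the regulator itself, of a glutathione enzyme and of a thioredoxin enzyme. They are written on the strand of the gene, with the match in capitals, and in Gclm and Txnrd1 it is on the opposite strand, so that its reverse complement is read.
Nfe2l2, chr2:75704860-75704913, minus strand: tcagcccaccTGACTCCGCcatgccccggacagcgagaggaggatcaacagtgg
Gclm, chr3:122245388-122245466, plus strand: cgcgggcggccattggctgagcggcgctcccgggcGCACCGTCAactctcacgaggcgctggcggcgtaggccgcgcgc
Txnrd1, chr10:82859079-82859157, plus strand, 1 of 3 annotated starts: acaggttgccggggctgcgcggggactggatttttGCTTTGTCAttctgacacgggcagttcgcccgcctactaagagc
The matches began 240, 134 and 92 bases before the start sites. A match is a string of letters in this window and was not measured as a binding site in these data.

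The numbers of cells that passed the filters were 9558 (normal), 7495 (IMQ) and 6092 (IMQ+celastrol), from matrices of 77880943, 119831835 and 103267738 unique molecular identifiers (UMIs, single captured transcripts). They formed 44 clusters, which were named from marker genes and written "-like" because the names rest on transcripts alone. Basal keratinocyte-like cells, the dividing layer marked by Krt5 and Krt14, numbered 2036 normal, 372 IMQ and 895 IMQ+celastrol cells. Differentiated keratinocyte-like cells, the layers above marked by Krt1 and Krt10, numbered 406, 526 and 349. The 8 basal markers summed to 21048, 27113 and 31151 CPM in the basal class, against 1785, 2439 and 3265 for the 11 differentiation markers. In the differentiated class the differentiation markers summed to 64189, 19513 and 36646 CPM and the basal markers to 2954, 18016 and 17954. The IMQ cells of that class thus held both sets at nearly the same sum, and were less distinct from basal cells than the normal ones. Libraries shared 26, 15 and 23 barcode sequences in pairs. Levels are counts per 1000000 UMIs of a class (CPM) and ratios are ratios of CPM, each with a 95% interval in parentheses. These intervals cover counting error only and leave out variation between animals, libraries and cells, so no test was made and treatment and library cannot be told apart. A ratio of 1.5-fold or more is called higher or lower.

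In keratinocytes the NRF2 targets were mostly higher in the IMQ library than in the normal library, and most of those were lower again in the IMQ+celastrol library, while the 2 regulators did not follow that course. In basal keratinocyte-like cells 6 of 10 genes were higher with IMQ (Nfe2l2, Slc7a11, Nqo1, Hmox1, Srxn1 and Gsta4), against 18.6% of 13373 genes tested, and 1 was lower (Gclc), against 32.1%. The median log2 ratio of the 10 was 1.34, against -0.16 over all genes tested. In differentiated keratinocyte-like cells 9 were higher, against 19.2% of 11820 genes, and 1 was lower (Keap1), against 36.7%. The medians were 1.64 and -0.28. These calls depended on which normal clusters were counted, as given below. With the unnamed cluster 25 of normal cells added, fewer genes were higher in differentiated cells and Keap1 was within 1.5-fold. Without cluster 7, Gclc, Gclm and Txnrd1 were higher in basal cells and Nfe2l2 was within 1.5-fold. The direction of Txnrd1 in differentiated cells was not stable. Every gene of the group had at least 20 UMIs over the libraries in both layers, so none was left out of these counts.

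With celastrol added, 6 of the 10 genes were lower than in the IMQ library in basal keratinocyte-like cells (Slc7a11, Gclm, Nqo1, Txnrd1, Srxn1 and Gsta4), against 12.3% of 13286 genes, and none was higher, against 12.2%. In differentiated keratinocyte-like cells 5 were lower (Slc7a11, Gclm, Nqo1, Txnrd1 and Gsta4), against 9.12% of 11873 genes, and none was higher, against 11.8%. The medians were -0.82 and -0.45, against -0.07 and 0.03 over all genes. Both comparisons use the IMQ library, so a high or low IMQ value enters them in opposite directions.

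The keratinocytes of the 3 libraries lay largely in different clusters. Normal basal cells were in clusters 3 (963 cells, led by Krt15 and Col17a1), 7 (824, led by Gnmt, Lhx2 and Tbx1) and 35 (191, led by Krt15 and cell division genes). IMQ basal cells were in cluster 12 (340 cells, with Gsta4 and Krt6a among its leading genes), which also held 331 IMQ+celastrol cells, and 531 further IMQ+celastrol cells were in cluster 17 (Stfa3, Krt5). Differentiated cells were in cluster 26 in the normal library (402 cells, Krt77 and Krt10) and in cluster 6 in the IMQ and IMQ+celastrol libraries (526 and 345 cells, Krt6b and Sprr1b). A cluster held mostly by 1 library may be that library rather than a cell type. The genes described here and the other listed NRF2 pathway genes were kept out of the genes used for clustering.

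Nfe2l2 (chromosome 2, 75675513 to 75704641, minus strand, GRCm38) stood at 92.6 CPM in normal, 151 in IMQ and 173 in IMQ+celastrol basal keratinocyte-like cells. The IMQ level was 1.63-fold that of normal (1.53 to 1.73), and the IMQ+celastrol level 1.15-fold that of IMQ (1.10 to 1.203). The factor's transcript was thus highest in the IMQ+celastrol library, where several of its targets were lower. In differentiated cells its levels were 37.3, 121 and 110 CPM, 3.23-fold higher with IMQ (2.75 to 3.83) and 0.909-fold with celastrol added (0.850 to 0.971). Keap1 (chromosome 9, 21229730 to 21239361, minus strand) was nearly level in basal cells, at 32.0, 36.2 and 32.2 CPM. In differentiated cells it was the only gene of the group below normal in the IMQ library, at 27.2, 16.5 and 20.3 CPM, or 1.65-fold lower (1.32 to 2.04). Scaling by size factors instead of class totals moves every log2 ratio of IMQ over normal up by 0.18 in basal and 0.36 in differentiated cells, and Keap1 was then within 1.5-fold.

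Slc7a11 (chromosome 3, 49892526 to 50443614, minus strand) encodes the cystine importer xCT. In basal keratinocyte-like cells it stood at 10.5 CPM in normal, 60.5 in IMQ and 9.13 in IMQ+celastrol. That is 5.76-fold higher with IMQ (4.94 to 6.75) and 6.63-fold lower with celastrol added (5.79 to 7.62), with overlapping intervals in the normal and IMQ+celastrol libraries. In differentiated cells the levels were 3.15 (13 UMIs), 158 (3263 UMIs) and 40.0 CPM (498 UMIs). The IMQ level was 50.1-fold the normal one (29.2 to 94.2), and the IMQ+celastrol level was 3.94-fold below IMQ (3.59 to 4.34) and 12.7-fold above normal (7.36 to 24.0). With IMQ the importer was thus higher in the differentiated than in the basal layer. In normal skin it was lower in the differentiated layer, an order that turned when cluster 7, described below the next genes, was left out of the basal class (1.80 against 3.15 CPM).

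Gclm and Gclc encode the modifier and catalytic subunits of glutamate-cysteine ligase, the first step of glutathione synthesis. Gclm (chromosome 3, 122245557 to 122270732, plus strand) stood at 106, 141 and 79.3 CPM in basal cells, 1.33-fold with IMQ (1.25 to 1.41) and 1.78-fold lower with celastrol added (1.69 to 1.89). Its differentiated levels were 13.8, 41.3 and 27.4 CPM, which is 2.99-fold higher with IMQ (2.28 to 3.98) and 1.51-fold lower with celastrol added (1.33 to 1.71). The log2 ratio for IMQ, 1.58, was 0.42 and within 1.5-fold with the unnamed cluster 25 added, and the ratio for celastrol lay at the threshold and was within 1.5-fold under 5 alternatives. Gclc (chromosome 9, 77754535 to 77794485, plus strand) went the other way in basal cells, at 70.3, 38.5 and 28.8 CPM, or 1.82-fold lower with IMQ (1.66 to 1.999). In differentiated cells it was 1.55-fold higher (1.201 to 2.03), at 16.2, 25.2 and 21.1 CPM. The 2 subunits of the enzyme therefore gave ratios on opposite sides of 1 in basal cells, a difference that rests on cluster 7 as described after the next genes.

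Nqo1 (chromosome 8, 107388225 to 107403206, minus strand) encodes a quinone reductase and is among the most used reporters of NRF2 activity. It stood at 6.75, 47.4 and 12.4 CPM in basal and at 1.21 (5 UMIs), 35.7 and 11.4 CPM in differentiated cells. With IMQ it was 7.02-fold (5.80 to 8.55) and 29.4-fold higher (12.5 to 90.8). With celastrol added it was 3.81-fold (3.36 to 4.32) and 3.12-fold lower (2.61 to 3.77). How far its differentiated levels lay above normal rested on which normal cells were counted, as given with cluster 25 below. Hmox1 (chromosome 8, 75093621 to 75100589, plus strand) encodes heme oxygenase 1, which breaks heme into biliverdin, iron and carbon monoxide and is also repressed by BACH1. It stood at 6.31, 27.9 and 19.4 CPM in basal and 3.88 (16 UMIs), 46.3 and 50.3 CPM in differentiated cells. With IMQ it was 4.43-fold (3.61 to 5.47) and 11.9-fold higher (7.31 to 21.0). With celastrol added its ratios were 0.693 (0.614 to 0.782) and 1.09 (0.981 to 1.203), neither past 1.5-fold. The differentiated log2 ratio was 0.12 here and -1.40 with each cell thinned to 2000 UMIs, so its direction was not stable.

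Txnrd1 (chromosome 10, 82833951 to 82897712, plus strand) encodes the cytosolic thioredoxin reductase. It stood at 44.4, 64.9 and 37.2 CPM in basal cells, 1.46-fold with IMQ (1.34 to 1.60) and 1.75-fold lower with celastrol added (1.61 to 1.90). The differentiated cells had 14.1, 21.8 and 8.28 CPM, 1.55-fold higher with IMQ (1.18 to 2.07) and 2.63-fold lower with celastrol added (2.12 to 3.29). The direction of the differentiated ratio of IMQ over normal was not stable, since its log2 value was 0.63 here and -0.27 with each cell thinned to 2000 UMIs. Srxn1 (chromosome 2, 152105516 to 152111376, plus strand) encodes sulfiredoxin, which restores over-oxidized peroxiredoxins. It stood at 4.70, 18.6 and 8.56 CPM in basal and 15.3, 34.5 and 27.8 CPM in differentiated cells. It was 3.95-fold (3.11 to 5.07) and 2.26-fold higher with IMQ (1.75 to 2.97), and 2.17-fold (1.84 to 2.57) and 1.24-fold lower with celastrol added (1.09 to 1.42).

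Gsta4 (chromosome 9, 78182774 to 78209349, plus strand) encodes a glutathione transferase that clears the lipid aldehyde 4-hydroxynonenal. In basal cells it stood at 14.4 CPM in normal, 522 in IMQ and 90.3 in IMQ+celastrol. It was 36.2-fold higher with IMQ (32.0 to 41.1) and 5.79-fold lower with celastrol added (5.54 to 6.05). In differentiated cells it stood at 16.003, 862 and 412 CPM, 53.9-fold higher with IMQ (42.3 to 69.7) and 2.09-fold lower with celastrol added (2.03 to 2.16). The IMQ+celastrol library thus lay 6.25-fold (5.50 to 7.13) and 25.7-fold above normal (20.2 to 33.3).

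**Figure D1:**
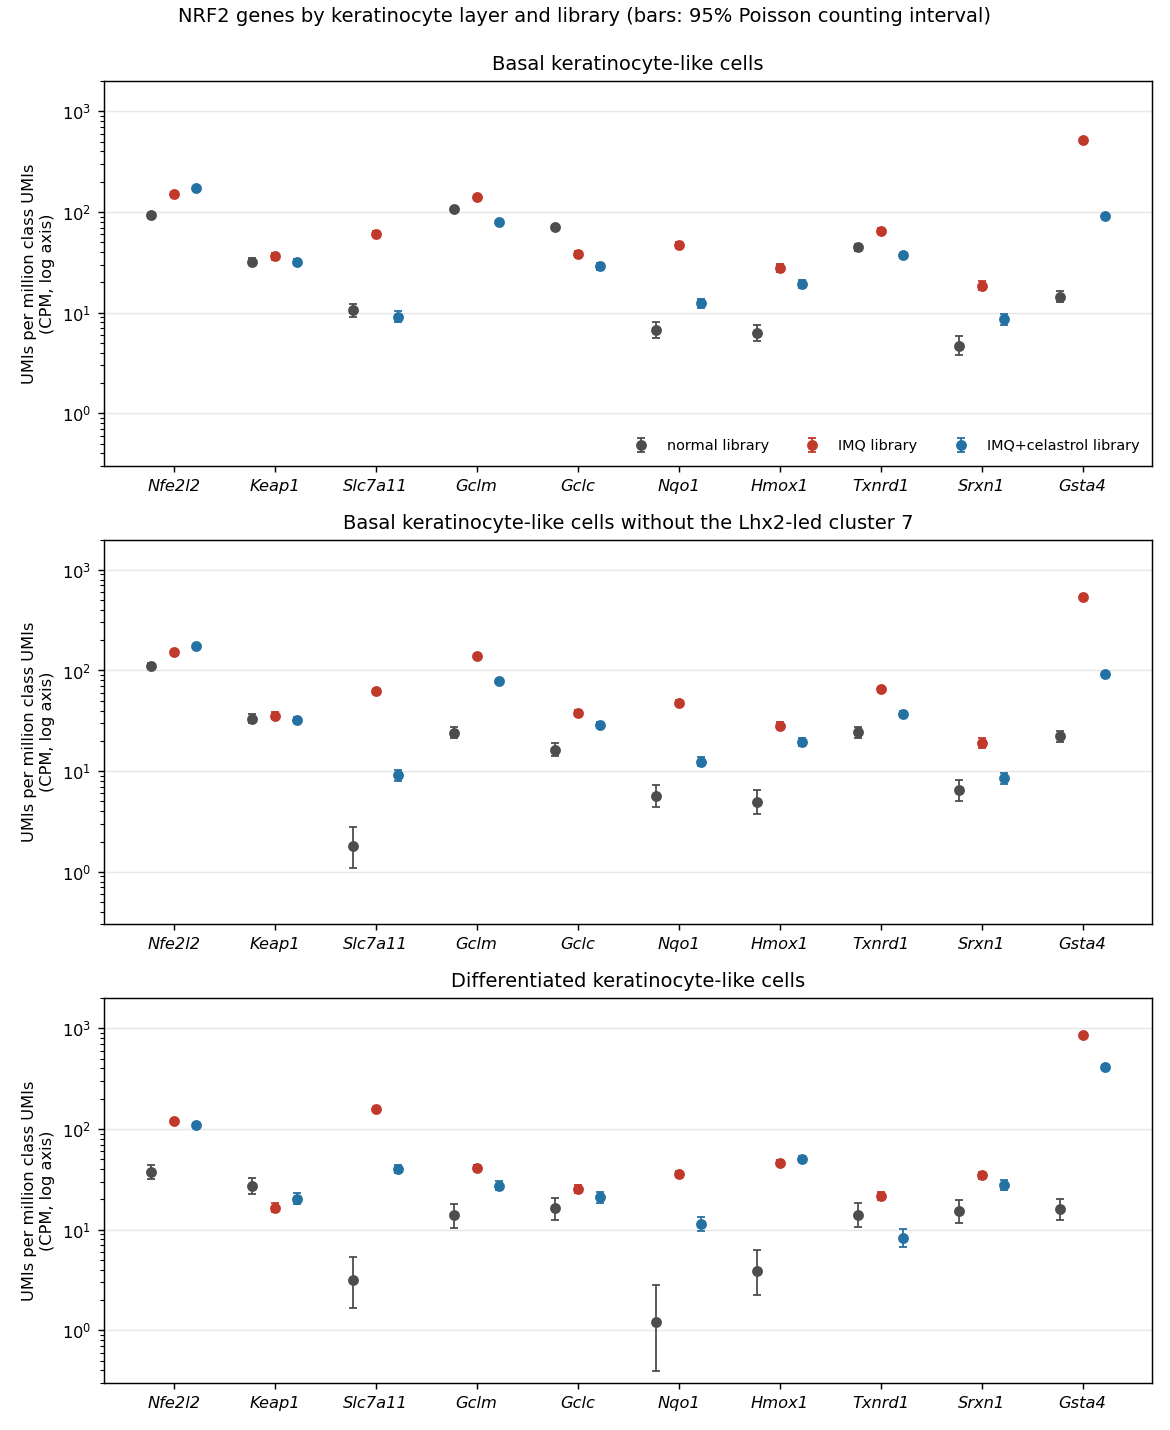
Level of each gene in counts per 1000000 UMIs of the class (CPM, log axis) in each of the 3 libraries, for basal keratinocyte-like cells, the same without cluster 7, and differentiated keratinocyte-like cells; points are 1 library each and bars are 95% Poisson counting intervals. Gsta4 goes from 14.4 to 522 and back to 90.3 CPM in basal cells, and the normal level of Gclc drops below those of the other libraries when cluster 7 is left out.

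Cluster 7 carried much of the normal basal level of the glutathione genes. In its 824 normal cells Gclm stood at 237 CPM, Gclc at 156, Txnrd1 at 76.4 and Slc7a11 at 24.3, against 14.7, 14.1, 22.6 and 1.38 CPM in cluster 3. It held 23 IMQ and 19 IMQ+celastrol cells. Lhx2, among its leading genes, encodes a factor known from hair follicle stem cells. Without this cluster Gclc was 2.33-fold higher with IMQ (1.98 to 2.76) in place of 1.82-fold lower. Gclm was then 5.83-fold higher (5.14 to 6.64), Slc7a11 34.4-fold (22.2 to 56.6) and Txnrd1 2.68-fold (2.35 to 3.07). Nqo1 was 8.46-fold higher (6.55 to 11.1), Hmox1 5.73-fold (4.33 to 7.70), Srxn1 2.94-fold (2.28 to 3.84) and Gsta4 24.2-fold (21.4 to 27.6). The regulators were then within 1.5-fold, at 1.37 for Nfe2l2 (1.28 to 1.47) and 1.07 for Keap1 (0.945 to 1.22). For IMQ+celastrol over normal, Slc7a11 was 0.869-fold with this cluster and 5.07-fold higher without it (3.21 to 8.44). The basal ratios against normal thus depend on whether these cells are counted, and the leaving out was chosen after the values were seen.

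The differentiated ratios depended on another cluster of normal cells. Cluster 25, left unnamed, held 405 normal cells and scored highest as differentiated keratinocytes. Nqo1 stood there at 22.6 CPM (17.6 to 28.6), Gclm at 53.7 (45.8 to 62.5) and Hmox1 at 16.8 (12.6 to 22.04), all above their levels in the normal differentiated class. With cluster 25 added to the class, 6 of 10 genes were higher with IMQ in place of 9, and Gclm, Gclc, Txnrd1 and Keap1 were within 1.5-fold. The shares of all genes given above are those of the class without cluster 25, so this count has no share of its own beside it. The log2 ratios of IMQ over normal were then 1.78 for Nqo1 in place of 4.88, 0.42 for Gclm in place of 1.58 and 2.30 for Hmox1 in place of 3.58. For IMQ+celastrol over normal, that of Nqo1 was 0.16 in place of 3.23, which is within 1.5-fold. Slc7a11 and Gsta4 had 3 UMIs each in cluster 25. The adding was likewise chosen after the values were seen.

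The ratios of IMQ+celastrol over IMQ could be set against those within single clusters that hold cells of both libraries. Cluster 12 (basal) held 340 and 331 cells, cluster 6 (differentiated) 526 and 345, and the unnamed cluster 9 (Gpx2, Krt79, Fabp5) 349 and 428. The unnamed cluster 24 (Lmo1, Aldh3a1, Sox9) held 52 and 215. Slc7a11 was lower in all 4, by 3.93-fold in cluster 12 (3.41 to 4.55), 3.92-fold in cluster 6 (3.56 to 4.31), 2.84-fold in cluster 9 (2.40 to 3.37) and 5.63-fold in cluster 24 (3.09 to 10.5). Txnrd1 was also lower in all 4, by 1.56-fold, 2.61-fold, 2.08-fold and 1.53-fold in the same order. Nqo1 was lower by 2.61-fold in cluster 12, 3.13-fold in cluster 6 and 1.67-fold in cluster 24, and by 1.44-fold in cluster 9. Gsta4 was 3.84-fold lower in cluster 12 (3.66 to 4.03), 2.08-fold in cluster 6 and 2.31-fold in cluster 24, but 1.07-fold in cluster 9 (0.979 to 1.17), at 85.5 and 91.5 CPM. Gclm was lower by 1.34-fold in cluster 12, 1.51-fold in cluster 6, 1.55-fold in cluster 9 and 1.19-fold in cluster 24, so its basal call was within 1.5-fold inside cluster 12. Srxn1 was lower by 1.87-fold, 1.23-fold, 1.14-fold and 1.84-fold in the same order. Nfe2l2, Keap1 and Gclc were within 1.5-fold in clusters 6, 12 and 24, and Gclc was 1.54-fold lower in cluster 9. Hmox1 was within 1.5-fold in clusters 6, 9 and 12 and 1.57-fold lower in cluster 24 (0.99 to 2.44). Cluster 17, held almost only by the IMQ+celastrol library, had 1.84 CPM of Slc7a11, 5.51 of Nqo1 and 39.7 of Gsta4, below the 15.9, 18.6 and 140 CPM of IMQ+celastrol cells in cluster 12.

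**Figure D2:**
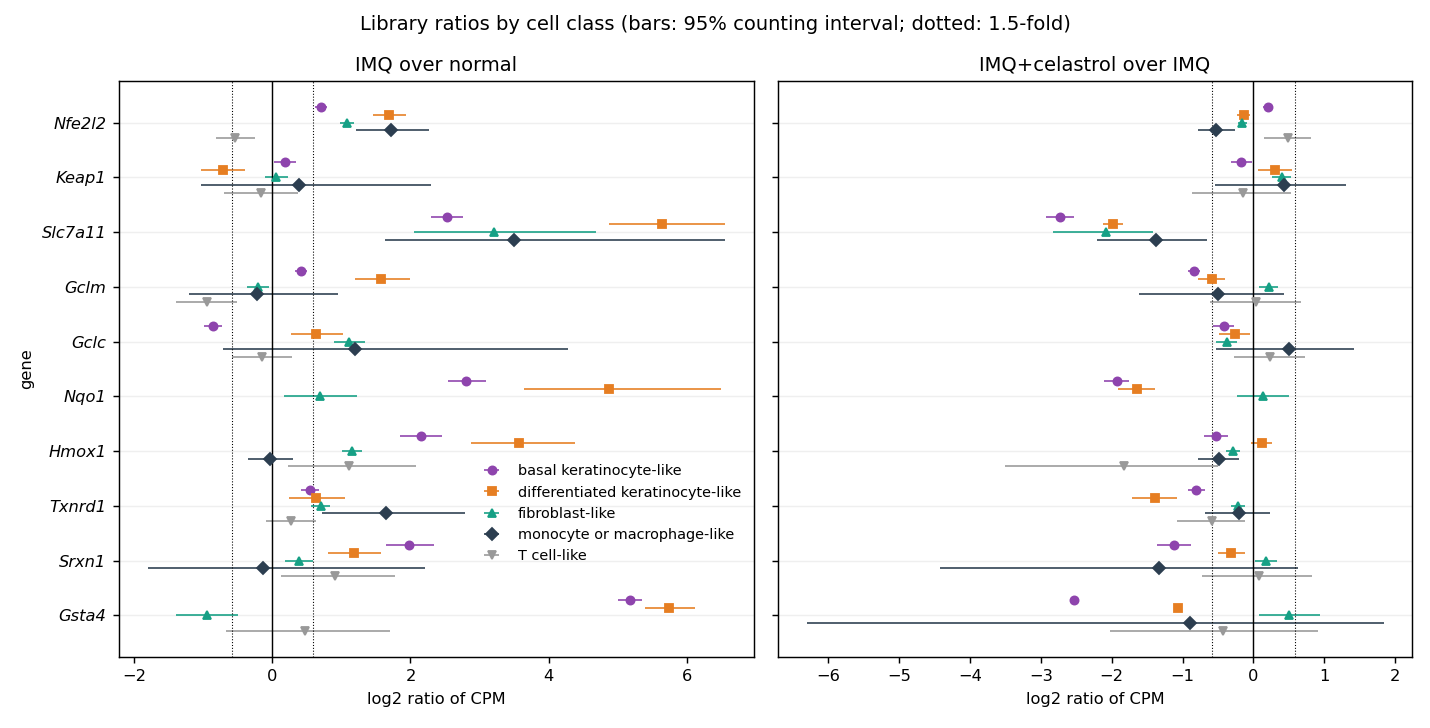
Log2 ratio of CPM of each gene for IMQ over normal and for IMQ+celastrol over IMQ, in basal and differentiated keratinocyte-like, fibroblast-like, monocyte or macrophage-like and T cell-like cells; bars are 95% counting intervals, dotted lines mark 1.5-fold and ratios that could not be measured are left out. Slc7a11, Nqo1 and Gsta4 lie far to the right with IMQ and to the left with celastrol added in keratinocytes, and Keap1 lies near 0 in most classes.

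Keratinocyte-like cells were also ordered by the share of Krt1 and Krt10 among the UMIs of Krt5, Krt14, Krt1 and Krt10 in each cell. The range under 0.1 held 543 IMQ cells, more than the 372 IMQ cells of the basal class. It had 2342 UMIs of Slc7a11 with IMQ, against 1172 in that class. This range thus also held IMQ cells of the differentiated class, and its IMQ values are not basal levels. Slc7a11 in the IMQ library stood at 85.9 CPM (82.5 to 89.5) in cells with a share under 0.1, at 164 (155 to 174) from 0.1 to 0.5 and at 161 (150 to 172) from 0.5 to 0.9. In the IMQ+celastrol library it stood at 10.5, 35.8 and 41.5 CPM in the same ranges, so the higher level in cells with more suprabasal keratin appeared in both. The normal library went from 10.7 to 7.93 and 4.93 CPM. Gclm had the opposite course, from 113 to 46.0 and 32.9 CPM in IMQ and 78.1 to 38.7 and 23.9 in IMQ+celastrol. In normal it went from 112 to 48.3 and 9.85 CPM. The lowest range of the normal library includes the basal cells of cluster 7, where Slc7a11 and Gclm were high, and the part of that cluster in the 2 normal courses was not tested. Txnrd1 also was lower in cells with more suprabasal keratin, from 53.9 to 20.4 and 17.7 CPM with IMQ. Hmox1 was nearly level with IMQ, at 36.5, 37.8 and 44.3 CPM, and stood at 6.71, 1.44 (2 UMIs) and 3.70 CPM (3 UMIs) in normal cells. The genes of the group thus did not share 1 course along this keratin share. The range of 0.9 and over held 337 normal and 77 IMQ+celastrol cells but only 21 IMQ cells, too few to give values.

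**Figure D3:**
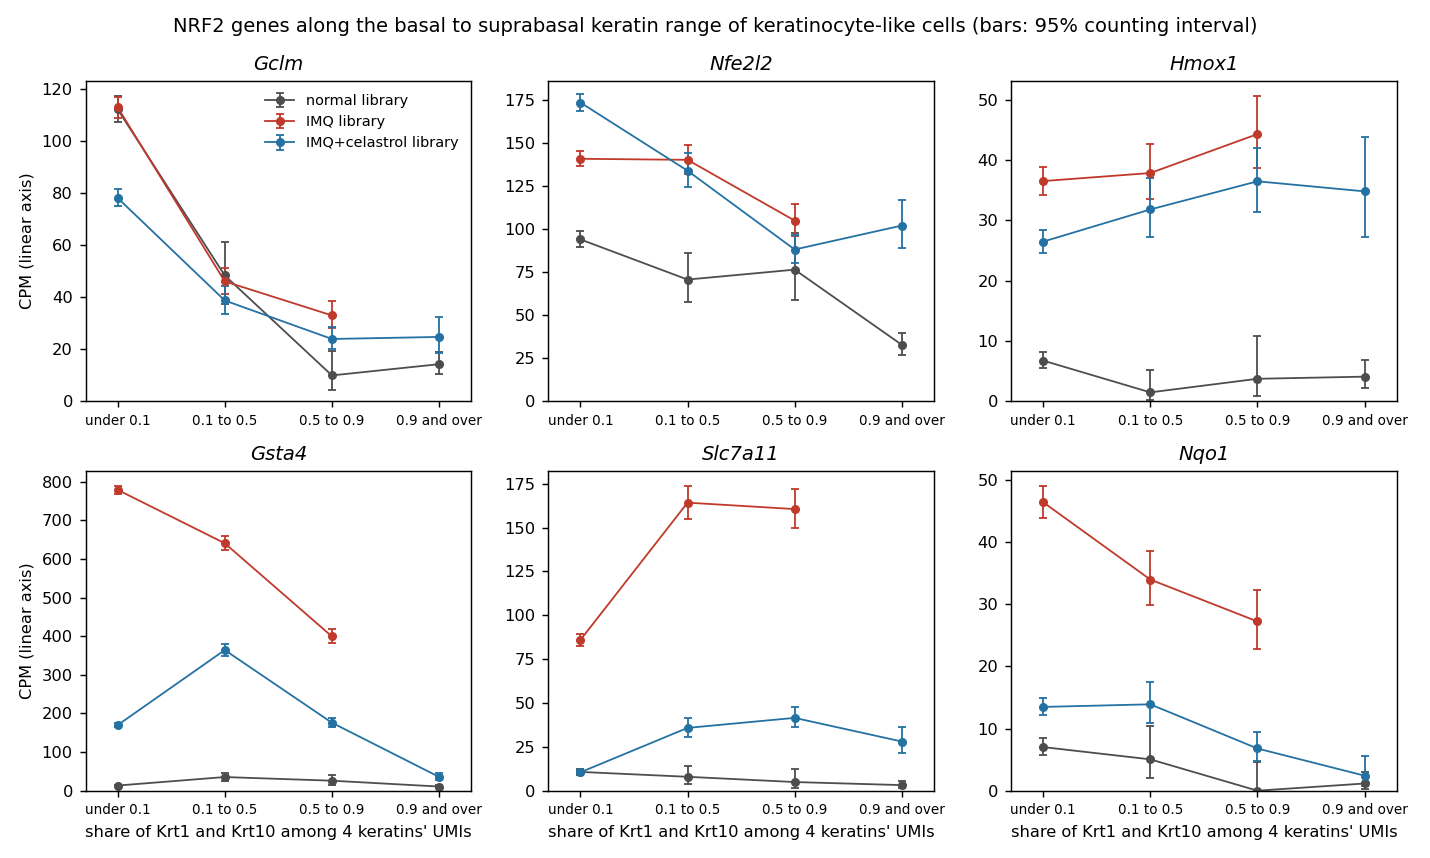
Levels (CPM, linear axes) of Gclm, Nfe2l2, Hmox1, Gsta4, Slc7a11 and Nqo1 in keratinocyte-like cells by their share of Krt1 and Krt10 among the UMIs of 4 keratins, for the 3 libraries; bars are 95% counting intervals. Gclm is highest in cells with a share under 0.1 in each library, with cluster 7 among the normal cells there, whereas Slc7a11 in the IMQ library goes from 85.9 to 164 CPM.

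Depth differed between libraries, with medians of 8039, 47255 and 27259 UMIs per basal and 9898, 39514 and 35276 per differentiated keratinocyte-like cell. Each cell was therefore thinned to 2000 UMIs before cells with a UMI were counted, which left out 7 normal, 13 IMQ and 6 IMQ+celastrol differentiated cells as too shallow. Slc7a11 was then seen in 28.8% of IMQ differentiated cells (24.96 to 33.0), 8.75% of IMQ+celastrol (5.98 to 12.3) and 0.501% of normal cells (0.0608 to 1.80). Before thinning the shares were 87.8%, 47.6% and 2.71%. In T cell-like cells, set beside these for comparison, the thinned shares were 0.166%, 0.420% and 0% of 601, 238 and 564 cells in the same order. Gsta4 was seen in 61.0%, 32.4% and 2.51% of thinned differentiated cells, against 1.66%, 2.10% and 0.532% of T cell-like cells. Both genes were thus seen in a larger share of IMQ than of IMQ+celastrol differentiated keratinocyte-like cells at equal depth.

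Transcripts of other cell types in these keratinocytes were measured as sums of marker lists. All 8 neutrophil markers had UMIs in IMQ basal cells, and their sum went from 115 CPM in normal to 17430 in IMQ and 2128 in IMQ+celastrol, with Csf3r and Retnlg at 0 in normal. In differentiated cells the sums were 206, 53894 and 13357 CPM, with Csf3r, Retnlg, Mmp9 and G0s2 at 0 in normal and Csf3r at 0 in IMQ+celastrol. S100a8, a calprotectin gene also known from inflamed keratinocytes, made up much of it, at 25146 CPM in IMQ differentiated cells. The 3 markers Csf3r, Cxcr2 and Retnlg together had 34 UMIs in IMQ basal and 241 in IMQ differentiated cells. Slc7a11 had 34.5 and 13.5 UMIs per UMI of these 3 markers there, against 0.0239 in the neutrophil-like cells of the same library. The part of the neutrophil list in the other results was not tested. Hmox1 had 29.0 UMIs per UMI of C1qa, C1qb and C1qc in IMQ differentiated cells, against 0.153 in monocyte or macrophage-like cells. The monocyte or macrophage list summed to 4.81, 7.75 and 5.26 CPM in basal cells (10, 10 and 11 of 11 markers, with Ccr2 at 0 in normal and Fcgr1 at 0 in IMQ). In differentiated cells it summed to 3.64, 25.7 and 6.99 CPM (7, 11 and 7 of 11 markers). The hair follicle list of 11 markers summed to 2808, 2927 and 1583 CPM in basal cells, with all 11 seen. In differentiated cells it summed to 1537, 6033 and 6255 CPM (10, 8 and 9 of 11), with Lhx2 at 0 in normal and Krt25 and Krt71 at 0 in the other libraries. The part of this list in the results was not tested.

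The other NRF2 pathway genes were described by a list of 47 genes in 8 roles. In basal keratinocyte-like cells 14 of 47 were higher with IMQ and 9 lower, against the same 18.6% and 32.1% of all genes, and with celastrol added 3 were higher and 19 lower, against 12.2% and 12.3%. In differentiated cells 46 could be measured, of which 21 were higher and 9 lower with IMQ, against 19.2% and 36.7%, and 4 were higher and 15 lower with celastrol added, against 11.8% and 9.12%. The counts by role below stand against the same shares, and in roles of few genes a count near them is no result about the role. The list's medians were 0.10 and 0.43 for IMQ over normal, and -0.46 and -0.37 for IMQ+celastrol over IMQ. The list thus lay above the median of all genes in the first comparison and below it in the second. The ratios of IMQ over normal for this list, here and below, count the normal basal cells of the cluster led by Gnmt, Lhx2 and Tbx1. They leave out the unnamed cluster of normal cells that scored highest as differentiated keratinocytes. Both comparisons also leave out the unnamed clusters 9 and 24, which scored highest as basal keratinocytes. Cluster 9 held 349 IMQ and 428 IMQ+celastrol cells, and cluster 24 held 52 and 215. Gpx2 and Aldh3a1 of this list are among their leading genes. The basal class also counts cluster 17, with 9 IMQ and 531 IMQ+celastrol cells. How far the ratios of the list depend on these choices was not tested.

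Of the 6 NADPH supply genes 4 were higher with IMQ in each layer and none lower. G6pdx, which encodes the first enzyme of the pentose phosphate pathway, stood at 7.30, 33.9 and 20.4 CPM in basal cells, 4.65-fold higher with IMQ (3.85 to 5.65). Pgd, which acts in the same pathway, stood at 21.96, 102 and 43.8 CPM, 4.63-fold higher with IMQ (4.16 to 5.17) and 2.32-fold lower with celastrol added. Of the 3 thioredoxin and peroxiredoxin genes, Txn1 (thioredoxin) was 3.05-fold higher with IMQ in basal (2.98 to 3.12) and 4.82-fold in differentiated cells (4.54 to 5.13). Prdx1 (a peroxiredoxin) was within 1.5-fold in both layers, at 1.24 and 1.33. In glutathione supply, 2 of 5 genes were higher in basal and 3 of 5 in differentiated cells. Slc3a2, the chain that pairs with the cystine importer, had ratios of 0.870 (0.829 to 0.913) and 2.29 (1.99 to 2.64), and Gsr, glutathione reductase, 0.809 and 0.686. The partner of Slc7a11 was thus called higher in the differentiated layer and not in the basal one.

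Of the 5 heme and iron genes none was higher and 2 were lower in basal cells, and 2 were higher and 2 lower in differentiated cells. Ftl1, ferritin light chain, stood at 819, 1074 and 639 CPM in basal cells and at 16.5, 171 and 84.96 CPM in differentiated cells, where it was 10.4-fold higher with IMQ (8.14 to 13.4). Fth1, ferritin heavy chain, was 1.22-fold in basal and 2.27-fold higher in differentiated cells, and was 1.71-fold and 2.83-fold lower with celastrol added. Conjugation genes were split, with 5 of 13 higher and 5 lower in basal cells and 6 of 12 higher and 4 lower in differentiated cells. Mgst1, a membrane-bound glutathione transferase that is also a sebocyte marker, was 4.89-fold higher (4.54 to 5.27) in basal and 20.7-fold (15.2 to 28.9) in differentiated cells. Like the other ratios over normal of this list, those of Mgst1 were not tested with other choices of normal clusters. Gstm1, a cytosolic glutathione transferase, was 2.40-fold lower in basal cells and 1.504-fold higher in differentiated cells (1.22 to 1.87). The efflux transporters Abcc1 and Abcc4 were within 1.5-fold in basal cells and 1.97-fold and 2.94-fold lower in differentiated cells.

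Of the 9 regulators none was higher and 2 were lower in basal cells, and 2 were higher in differentiated cells. Sqstm1, the autophagy receptor p62 that binds KEAP1, stood at 70.1, 401 and 222 CPM in differentiated cells, 5.72-fold higher with IMQ (5.09 to 6.45) and 1.81-fold lower with celastrol added. Bach1, a repressor at the same elements, was within 1.5-fold in both layers, at 0.947 and 0.863. Among 4 other targets, Esd (esterase D) was 2.23-fold (2.15 to 2.32) and 4.06-fold higher with IMQ (3.65 to 4.53) and 2.20-fold lower with celastrol added in both layers. Osgin1, an oxidative stress-induced growth inhibitor, was within 1.5-fold in basal cells at 0.896 (0.731 to 1.10). In differentiated cells it had 3 UMIs in normal and 477 in IMQ, a ratio of 31.7 (10.8 to 154).

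In fibroblast-like cells, which build the dermal matrix (2848, 3335 and 2383 cells), 6 of 10 genes were higher with IMQ, against 15.8% of 14499 genes, and 1 was lower (Gsta4), against 18.4%. Hmox1 stood at 32.4, 71.7 and 58.9 CPM, 2.21-fold higher with IMQ (2.002 to 2.45). Nfe2l2 stood at 69.1, 145 and 131 CPM, 2.10-fold higher (1.96 to 2.26), and Gclc at 14.6, 31.6 and 24.3 CPM, 2.16-fold higher (1.86 to 2.52). Slc7a11 was rare, with 6, 131 and 21 UMIs or 0.426, 3.96 and 0.933 CPM. With celastrol added Slc7a11 was the 1 gene called lower, against 7.28% of 14491 genes, and none was higher, against 14.9%. The group's medians were 0.69 and -0.01, against 0.00 and 0.15 over all genes. The decline with celastrol added that was measured in keratinocytes for Nqo1, Gclm, Txnrd1 and Srxn1 was not called in fibroblasts, where their ratios were 1.10, 1.16, 0.861 and 1.13. With each cell thinned to 2000 UMIs, the log2 ratios of IMQ over normal changed sign for Nqo1 (-0.019) and Gsta4 (0.11).

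The fibroblast clusters were also unevenly shared, with cluster 0 (Tnc, Mmp3, Saa3) holding 9, 1282 and 346 cells. In the 5 fibroblast clusters with at least 50 cells of every library (1000, 1624 and 1655 cells), Nfe2l2 was 1.83-fold higher with IMQ (1.62 to 2.07), Gclc 2.03-fold (1.55 to 2.72) and Slc7a11 6.04-fold (1.56 to 51.7). Hmox1 was then 1.27-fold (1.05 to 1.54), Txnrd1 1.201-fold (1.02 to 1.42) and Nqo1 1.41-fold (0.724 to 3.001), within 1.5-fold. The clusters left aside include cluster 0, which both IMQ libraries hold. They also include clusters 1 and 16, which held 1143 and 586 normal cells and few IMQ cells. The fibroblast calls for Hmox1, Txnrd1 and Nqo1 thus depended on which clusters were counted, and the part of each cluster was not tested. Nqo1 had 11 normal UMIs in the shared clusters. Gsta4 in fibroblast-like cells stood at 5.54, 2.87 and 4.09 CPM, which is 31.1 UMIs per 1000 UMIs of Krt5 and Krt14 in the IMQ library. That ratio was 20.6 in IMQ basal and 48.4 in IMQ differentiated keratinocyte-like cells. In the normal library it was 106.8 in fibroblast-like cells, against 0.982 and 9.91. The 8 basal keratinocyte markers were all seen in fibroblast-like cells and summed to 191, 223 and 583 CPM. The IMQ fibroblast value thus did not stand apart from that of keratinocytes, whereas the normal one did.

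Monocyte or macrophage-like cells (127, 563 and 100 cells) were the class with the highest Hmox1 among those with at least 50 cells in every library, at 295 CPM in normal (236 to 365), 289 in IMQ (272 to 306) and 206 in IMQ+celastrol (169 to 248). Of the 8 genes that could be measured for IMQ over normal, 4 were higher (Nfe2l2, Slc7a11, Gclc and Txnrd1), against 25% of 8542 genes, and none was lower, against 21.2%. Nfe2l2 stood at 111, 366 and 255 CPM, 3.29-fold higher with IMQ (2.32 to 4.83), and Txnrd1 at 31.3, 98.3 and 85.02 CPM, 3.14-fold higher (1.64 to 6.93). Slc7a11 stood at 6.95 CPM (2 UMIs), 78.8 and 30.2, a ratio of 11.3 with IMQ (3.11 to 94.04) and 2.61-fold lower with celastrol added (1.58 to 4.62). The ratio of Gclc, 2.30 (0.609 to 19.4), rests on 2 normal UMIs, as does that of Slc7a11. The median of the 8 was 0.79, against 0.05 over all genes. With celastrol added 2 of the 8 genes with at least 20 UMIs over the libraries were lower (Slc7a11 and Srxn1), against 17.7% of 8766 genes, and none was higher, against 12.1%. Gsta4, below that minimum, also had a ratio past 1.5-fold, on 1 UMI in the IMQ+celastrol library. Srxn1 had 2 UMIs there, and both changed sign under an alternative each.

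This class was made of 2 clusters in unlike proportions. Cluster 36, led by the complement genes of resident macrophages (C1qb, C1qc), held 106 normal, 58 IMQ and 16 IMQ+celastrol cells. Cluster 15, led by Chil3, Lyz2 and Ly6c2, held 21, 505 and 84. Within cluster 36 Hmox1 stood at 331 CPM in normal and 1015 in IMQ, 3.07-fold higher (2.40 to 3.97), whereas in cluster 15 it stood at 183 CPM in IMQ and 186 in IMQ+celastrol. The ratio of Hmox1 with IMQ over the whole class was 0.977 (0.783 to 1.23). The part of the levels and of the cell shares of the 2 clusters in it was not tested. Within cluster 36 Nfe2l2 was 1.09-fold (0.588 to 2.10) and Slc7a11 had no UMI among 226686 in normal and 468852 in IMQ. The 8 neutrophil markers summed to 76.5 CPM in normal (4 seen, with S100a9, Cxcr2, Retnlg and G0s2 at 0), 2547 in IMQ and 2568 in IMQ+celastrol cells of the class, and their part in the class ratios was not tested. Slc7a11 had 0.834 UMIs per UMI of Csf3r, Cxcr2 and Retnlg in IMQ cells of the class, against 0.0239 in neutrophil-like cells. Within cluster 15 Slc7a11 was 2.58-fold lower with celastrol added (1.56 to 4.57) and Nfe2l2 1.51-fold lower (1.25 to 1.82).

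Neutrophil-like cells, short-lived phagocytes that enter inflamed skin, numbered 7, 142 and 68, so the normal library gives no level. They had the highest Slc7a11 of all classes with at least 50 cells in a library, at 619 CPM in IMQ (562 to 679) and 708 in IMQ+celastrol (596 to 834), and intervals that overlap. Nfe2l2 stood at 501 and 578 CPM and was likewise highest here. Hmox1 stood at 96.2 CPM (74.7 to 122) and 204 (147 to 277), higher in the IMQ+celastrol library. The lower Slc7a11 of the IMQ+celastrol library in both keratinocyte layers and in cluster 15 was thus not measured in neutrophil-like cells.

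**Figure D4:**
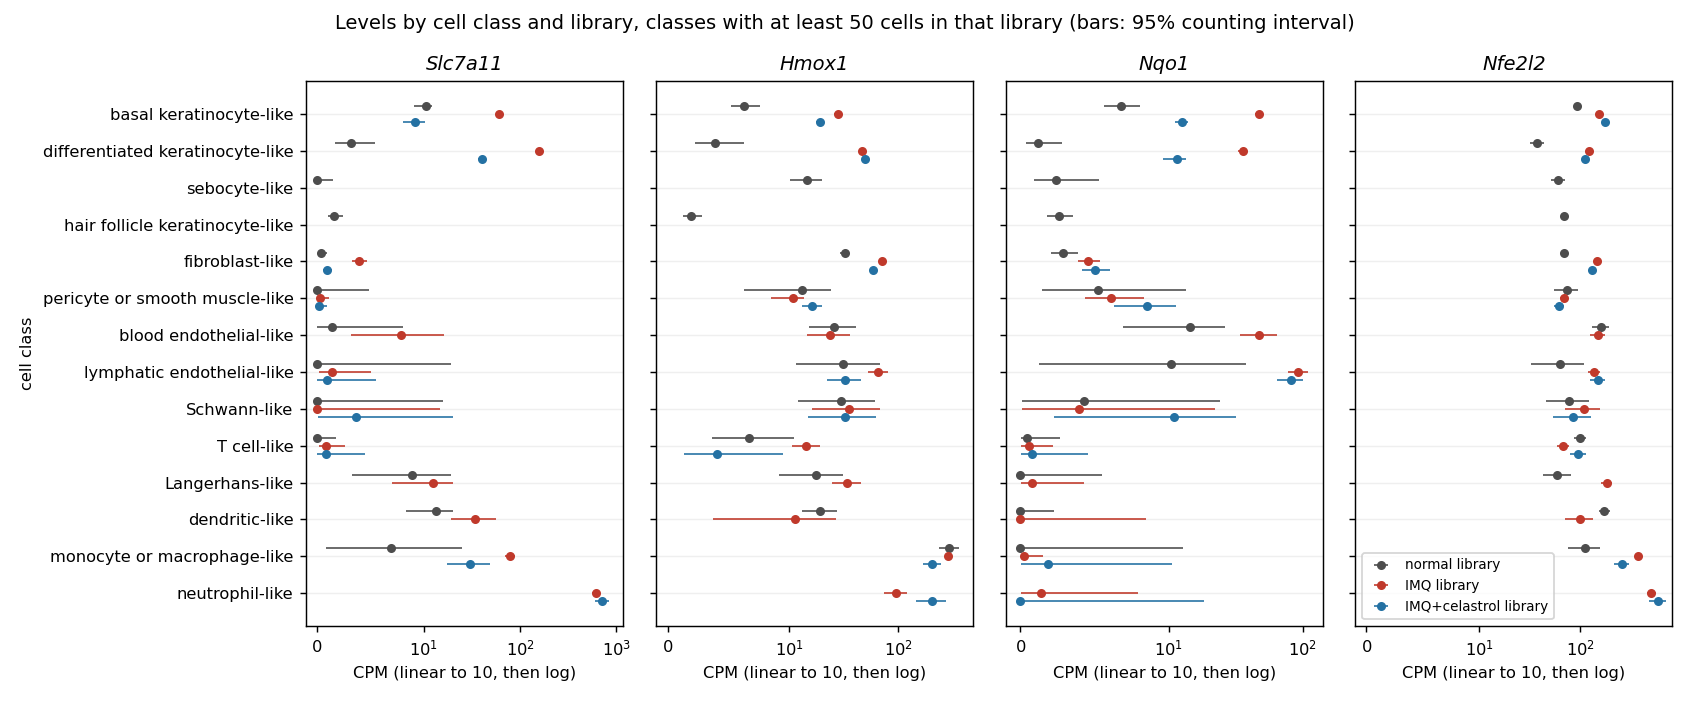
Levels (CPM, linear to 10 and logarithmic above) of Slc7a11, Hmox1, Nqo1 and Nfe2l2 in each cell class with at least 50 cells in a library, for the 3 libraries; bars are 95% Poisson counting intervals. Slc7a11 and Nfe2l2 are highest in neutrophil-like cells and Hmox1 in monocyte or macrophage-like cells. Nqo1 is highest in lymphatic endothelial-like cells in the IMQ and IMQ+celastrol libraries.

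In lymphatic endothelial-like cells, which line the vessels that drain tissue fluid (52, 182 and 150 cells), Nqo1 stood at 10.4 CPM (2 UMIs), 93.2 (132 UMIs) and 81.2 (82 UMIs). The ratio was 8.95 with IMQ (2.43 to 74.6) and 0.872 with celastrol added (0.654 to 1.16). Slc7a11 could not be measured there, with 0, 2 and 1 UMIs. Hmox1 stood at 31.2 CPM (6 UMIs), 65.6 and 32.7, 2.01-fold lower with celastrol added (1.34 to 3.08). Nfe2l2 was also called higher with IMQ, at 2.18-fold (1.22 to 4.29). Gclc (on 3 normal UMIs) and Hmox1 were called higher too, at 2.12-fold (0.683 to 10.7) and 2.10-fold (0.929 to 5.87), with intervals that include 1. Txnrd1 was 1.69-fold lower with celastrol added (1.09 to 2.68). Over all genes 24.8% were higher and 15.3% lower with IMQ, and 9.22% and 9.92% with celastrol added. Nqo1 in this class thus went without the decline with celastrol added that it had in keratinocytes, whereas Hmox1 showed one that was not called in either keratinocyte layer.

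In T cell-like cells (678, 752 and 345 cells) 2 of the 8 genes that could be measured were higher with IMQ, against 19% of 10308 genes, and 1 was lower, against 15.2%, which is near the shares of all genes. Gclm stood at 45.7, 23.6 and 24.3 CPM, 1.94-fold lower with IMQ (1.42 to 2.64). Hmox1 stood at 6.67 (14 UMIs), 14.4 (48 UMIs) and 4.06 CPM (5 UMIs), 2.15-fold higher with IMQ (1.17 to 4.23). With celastrol added it was 3.54-fold lower (1.42 to 11.4), the 1 gene of the 8 called in that comparison, against 10.9% lower and 10.9% higher of 10293 genes. Srxn1 stood at 8.58, 16.2 and 17.0 CPM, 1.88-fold higher with IMQ (1.09 to 3.41), and Slc7a11 and Nqo1 could not be measured. In pericyte or smooth muscle-like cells, the contractile cells of vessel walls (184, 503 and 454 cells), ratios of IMQ over normal lay within 1.5-fold for Nfe2l2, Keap1, Gclm, Gclc, Nqo1, Hmox1, Txnrd1 and Gsta4. Srxn1 there was 2.59-fold higher (1.16 to 7.19), on 6 UMIs in normal, against 18.6% of 11193 genes higher and 20.6% lower in this class. In Schwann-like cells, the glia of skin nerves (112, 74 and 82 cells), 5 of the 10 genes had at least 20 UMIs over the libraries, and ratios for Slc7a11, Nqo1 and Srxn1 could not be measured.

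The genes whose levels were most like those of each gene over 24 combinations of 8 cell classes and 3 libraries were found by the Pearson correlation of log2(CPM + 10) among 15178 genes. The points share libraries and cell classes, so the correlations are descriptions. Slc7a11 was most like Il1a (r = 0.97), which encodes the alarmin interleukin-1 alpha, Gk (0.90) and Ppef2 (0.88). Gsta4 was most like Gm5416 (0.97), Klk10 (0.97), a kallikrein-related peptidase gene, and Samd12 (0.96), and Nqo1 most like Sh2d5 (0.92), Nectin2 (0.81) and Gatsl3 (0.81). Hmox1 was most like 5031439G07Rik (0.90), Flcn (0.90) and Sirpa (0.87), an inhibitory receptor gene of myeloid cells. The other genes had weaker partners. These were Ier3, Slc25a37 and Sde2 (0.82, 0.82 and 0.81) for Nfe2l2 and Tmem57, Card10 and Nelfa (0.85, 0.85 and 0.84) for Keap1. For Gclm they were Seh1l, Mrpl50 and C1qtnf12 (0.87, 0.84 and 0.82), and for Gclc Emg1, Nop56 and Ddx21 (0.80, 0.77 and 0.76). For Txnrd1 they were St7, Ftl1 and Nin (0.76, 0.74 and 0.73), and for Srxn1 Gars, Arfgef2 and Armc6 (0.76, 0.74 and 0.72). No gene of the group was among the 3 nearest of another. Over the same points Slc7a11 with Gsta4 had r = 0.71, Nfe2l2 with Hmox1 0.70 and Gclm with Gclc 0.29. The ligase subunits were thus less alike in their levels than Slc7a11 and Gsta4.

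Several of these genes overlap other annotated genes, and whether the counting used strand is not given in the sources used here. Nfe2l2 overlaps Gm24996, Keap1 the antisense gene Gm16754, Slc7a11 several pseudogenes and an antisense gene, Gclm Gm17494 and Gm6061, and Txnrd1 the coding gene Eid3 among others. Counts of these 5 genes could include or lack reads assigned to a neighbour. Gclc, Nqo1, Hmox1, Srxn1 and Gsta4 overlap none in the annotation used.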

How the data were processed

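The authors deposited UMI counts for every gene in every barcode. The file headers name Cell Ranger 4.0.0 as the source of these counts, and mm10 and GRCm38 are the builds in the submitters' processing notes. How reads were aligned and how cells were called are not given in the sources used here. All genes described, the pathway and marker lists and the rules for naming clusters were chosen with earlier results of these data known.

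Barcodes with fewer than 300 genes or over 20% mitochondrial UMIs were left out, as were the top-scoring Scrublet doublets at 0.8% per 1000 cells in every library (870, 513 and 330 cells), because Scrublet itself marked 213, 1 and 88. Depth is given as 77880943, 119831835 and 103267738 UMIs. Counts scaled to 10000 per cell were clustered on 2000 variable genes and 30 principal components with 15 neighbours, by the Leiden method at resolution 1 (scanpy 1.11.5, leidenalg 0.10.2), for the libraries together and without integration. The 10 genes and the 47 pathway genes were kept out. Of 44 clusters, 7 did not pass the naming rule (a score of at least 0.25 and 1.2 times the next, over 21 marker lists) and entered no class. A class was compared where each library held 50 or more of its cells. Summed UMIs gave CPM with exact Poisson and ratios with exact conditional binomial 95% intervals (scipy 1.17.1). All genes with at least 20 UMIs in a class were the background. A gene with at most 3 UMIs in both libraries, or whose bound at 3 UMIs fell on the wrong side of 1, was not measured. Recovery of known fold changes was tested on simulated counts. Named pathway genes are the first 2 of each role as listed. Alternatives changed doublets, cell filters, clustering, naming, scaling, cell weights, depth, layer split and fold. Gene positions follow GENCODE M21 on GRCm38, promoters RefSeq on GRCm38.p6.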

Additional observations from a re-analysis of the deposited data

Results flagged for a closer look

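For 3 genes the log2 ratio of IMQ over normal lay past 1.5-fold in opposite directions in different cell classes. With 1 library per group these differences were not tested. Gclm stood at -0.95 in T cell-like and 1.58 in differentiated keratinocyte-like cells, where it was 0.42 with the unnamed cluster 25 added. Gclc stood at -0.87 in basal keratinocyte-like cells, against 0.63 in differentiated keratinocyte-like, 1.11 in fibroblast-like and 1.201 in monocyte or macrophage-like cells, and its basal value was 1.22 without cluster 7. The monocyte or macrophage value rests on 2 normal UMIs, with an interval that reaches below 1 (ratios of 0.609 to 19.4). Gsta4 stood at -0.95 in fibroblast-like cells, against 5.18 in basal and 5.75 in differentiated keratinocyte-like cells. Its fibroblast value was 0.11 with each cell thinned to 2000 UMIs, so its direction there was not stable. In the shared fibroblast clusters it was -0.60, with an interval that reaches above 1 (ratios of 0.424 to 1.05).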

How the results depend on the processing

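Of the counts of genes past 1.5-fold under the alternatives, 191 were within 1.5 times the value given and 21 were not. No gene lower with IMQ in differentiated keratinocyte-like cells (0, in place of 1) was counted when every cluster took its highest-scoring name, with size factors, at 2-fold or with the unnamed keratinocyte clusters added. At 2-fold, counts of lower genes with IMQ were also 0 in basal keratinocyte-like and fibroblast-like cells, and in fibroblast-like cells with thinning or equal cell weights. Leaving out cluster 7 gave 0 lower genes in basal cells and turned the log2 ratio of Gclc to 1.22 (IMQ over normal) and 0.82 (IMQ+celastrol over normal). It removed 824 normal, 23 IMQ and 19 IMQ+celastrol cells. With celastrol added, 1 gene instead of 0 was higher in fibroblast-like cells with no doublets left out, at 500 genes and 10% mitochondrial, and with each library clustered by itself. In monocyte or macrophage-like cells 3 were higher with no doublets left out and 1 with Scrublet's own calls, at 500 genes and 10%, with thinning and within cluster 15. There, 1 gene was lower with IMQ under Scrublet's own calls and thinning. Splitting layers at a keratin share of 0.5 gave 1 gene higher with celastrol added in differentiated cells. Shared fibroblast clusters gave 3 genes higher with IMQ in place of 6. Shares of all genes are not given here for these alternatives, so the counts stand without a background.

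Ratios under the alternatives were taken in both keratinocyte layers and in fibroblast-like, monocyte or macrophage-like and T cell-like cells. Those of lymphatic endothelial-like, pericyte or smooth muscle-like and Schwann-like cells were not tested in this way. Among log2 ratios past 1.5-fold, those that changed sign were Txnrd1 for IMQ over normal in differentiated cells, at -0.0572 (500 genes and 10%), -0.25 (each library by itself) and -0.27 (thinned). In the same cells Gclm for IMQ+celastrol over normal was -0.15 both with highest-scoring names and with unnamed clusters added. In monocyte or macrophage-like cells, for IMQ+celastrol over IMQ, Gsta4 was 1.03 with no doublets left out and Srxn1 was 0.37 with thinning. In fibroblast-like cells, for IMQ over normal with thinning, Nqo1 was -0.019 and Gsta4 0.11. Gsta4 for IMQ+celastrol over IMQ was 0.10 within cluster 9. The cause was not tested. Ratios within 1.5-fold also changed sign, among them Slc7a11 (-0.20 to 2.34) and Gclm (-0.42 to 1.71) for IMQ+celastrol over normal in basal cells without cluster 7, and Hmox1 for IMQ+celastrol over IMQ (0.12 to -1.40 thinned in differentiated cells, -0.53 to 0.25 within cluster 9). Gclm for IMQ over normal in basal cells went from 0.41 to -0.12 with layers split by keratin share. No paired analysis was possible because each group is 1 library, and for the same reason no replicate could be left out. Alternatives within single clusters, without cluster 7, with unnamed clusters added and in shared fibroblast clusters were chosen after seeing the data. Depth limits Slc7a11 and Nqo1 in normal differentiated keratinocyte-like cells, with 13 and 5 UMIs, and some normal counts in other classes were lower still.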

Other observations

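Some classes had at least 50 cells only in part of the libraries and entered no comparison. In the 210 sebocyte-like cells of the normal library, the lipid-secreting cells of the skin gland, Gclm stood at 215 CPM (197 to 234), Gclc at 79.2 (68.5 to 91.1) and Gsta4 at 42.8 (35.1 to 51.8). Slc7a11 had no UMI there among 2474455. In the 1099 hair follicle keratinocyte-like cells of the normal library, Gclm stood at 119 CPM (113 to 125), Txnrd1 at 74.4 (69.96 to 79.1), Nqo1 at 2.57 (1.80 to 3.56) and Srxn1 at 0.428 (0.157 to 0.933). Slc7a11 in these cells stood at 1.64 CPM (1.04 to 2.46). Gclm in both classes thus lay above its level in normal basal keratinocyte-like cells, 106 CPM, to which the hair follicle value was near. Without cluster 7 that basal level was 24.1 CPM. Slc7a11 in the hair follicle class was near its normal basal level without cluster 7, 1.80 CPM, whereas normal cells of cluster 7 had 24.3 CPM. The hair follicle class had 1 cell in each of the other libraries.

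Langerhans-like cells, the antigen-presenting cells of the epidermis, numbered 83 normal and 62 IMQ cells, with Nfe2l2 at 59.2 CPM (42.3 to 80.6) and 181 (159 to 206), and Txnrd1 at 69.6 (51.1 to 92.5) and 142 (122 to 164). Dendritic-like cells, 296 normal and 51 IMQ, had Nfe2l2 in the other order, at 172 CPM (153 to 194) and 98.4 (71.2 to 133). In blood endothelial-like cells, 187 normal and 50 IMQ, Nqo1 stood at 14.4 (6.90 to 26.5) and 47.2 CPM (34.0 to 63.8). These values are descriptions of single libraries.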
